A study of Caenorhabditis elegans with 2 samples.

Results

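The 36 genes described here encode the contractile apparatus of Caenorhabditis elegans muscle, and they were taken by name from the Ensembl WBcel235 annotation, out of 19973 protein-coding genes on the nuclear chromosomes. They comprise 3 actin regulator genes, 10 attachment genes, 3 genes for giant sarcomere proteins and a myosin chaperone, 8 thick filament genes and 12 thin filament genes. At each one, the occupancy of M03D4.4, predicted to be a zinc finger protein of the C2H2 class, was read from the deposited peaks of chromatin immunoprecipitation and sequencing (ChIP-seq). The material was strain OP696, with the genotype unc-119(tm4063) III; wgIs696, in which a stably expressed transgene adds M03D4.4 with a C-terminal GFP-FLAG tag. Whole mixed-stage embryos of both sexes were collected 2 h after egg bleaching, and an anti-GFP antibody was used on 2 biological replicates. These form 1 group, and no other genotype, stage or tagged protein was analysed here. The sources used here name neither the promoter nor the copy number of the transgene. The untagged protein of the endogenous gene is not seen by the antibody. Because whole embryos were used, the cells in which a site was bound cannot be told apart, and binding confined to muscle cannot be separated from binding elsewhere.

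Body wall muscle of the worm is built from repeated sarcomeres, in which myosin thick filaments slide along actin thin filaments. Thick filaments are held at M-lines and thin filaments at dense bodies, and both structures are tied through integrin adhesion complexes to the basement membrane between muscle and hypodermis. Muscle cells arise in the embryo under the MyoD family factor HLH-1, and they assemble this apparatus before hatching. Loss of several of the attachment genes gives the Pat phenotype, in which embryos are paralysed and stop elongating. MYO-1 and MYO-2, products of 2 of the thick filament genes, are the heavy chains of the pharynx and not of the body wall.

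Some of the bound sequence is shown first, since the sites shared base composition more than any word searched. A called peak is one in the list that the authors derived from both replicates by the irreproducible discovery rate (IDR). That rate is a measure of how well peak ranks agree between replicates, but single called peaks could still rank apart. The unc-15 peak, for example, ranked 799 in replicate 1 and 2296 in replicate 2. The summit of a peak is the deposited position of its highest point. The 7 stretches below cover the summits of called peaks at the actin regulator, attachment, giant protein, thick filament and thin filament genes, and each is written 5′ to 3′ on the strand of its gene, from the RefSeq WBcel235 genome (ce11). Capitals mark matches, on either strand, to the 6-letter words GAGAGA (a GA repeat), CACACA (a CA repeat) and, at unc-22, GACGCA. The mlc-3 stretch ends at the last base before the 5′ end of the gene, and the others span the summit and 50 bp on each side of it.
unc-60 upstream, chrV:1474705-1474805, plus strand: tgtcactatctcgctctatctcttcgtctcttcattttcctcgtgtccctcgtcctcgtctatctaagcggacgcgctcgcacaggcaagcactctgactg
unc-112 upstream, chrV:14697035-14697135, minus strand: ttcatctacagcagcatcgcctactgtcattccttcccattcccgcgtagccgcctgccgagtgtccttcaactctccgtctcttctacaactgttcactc
unc-22 intron, chrIV:12010545-12010645, minus strand: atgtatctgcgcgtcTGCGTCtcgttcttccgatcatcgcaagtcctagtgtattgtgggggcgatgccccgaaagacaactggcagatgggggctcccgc
mlc-2 upstream, chrX:17456901-17457001, minus strand: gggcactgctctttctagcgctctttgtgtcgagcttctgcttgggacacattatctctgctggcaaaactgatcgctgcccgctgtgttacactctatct
mlc-3 upstream, chrIII:5564935-5565024, plus strand: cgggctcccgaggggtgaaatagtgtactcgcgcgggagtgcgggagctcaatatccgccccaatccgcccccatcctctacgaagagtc
act-1 upstream, chrV:11080395-11080495, plus strand: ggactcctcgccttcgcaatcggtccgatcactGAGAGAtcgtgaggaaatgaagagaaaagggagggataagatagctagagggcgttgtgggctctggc
act-4 intron, chrX:4962396-4962496, plus strand: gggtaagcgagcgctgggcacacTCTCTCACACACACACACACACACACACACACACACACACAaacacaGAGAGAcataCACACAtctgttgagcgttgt

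The 5 words searched were CAGCTG (the E-box form bound by the MyoD family), GAGAGA (a GA repeat), TATAAA (the TATA box), CACACA (a CA repeat) and lastly GACGCA. The CA repeat and GACGCA were chosen after the peaks had been seen. CAGCTG reads the same on both strands, and overlapping matches were each counted. Within 101 bp at the summit, GAGAGA was found in 5 of the 12 called peaks at muscle genes (41.7%), against 21.2% of the other 1411 called peaks. It was found in 8.65% of windows 200 to 300 bp to one side of those other summits, taken as flanks, and in 8.86% of the 101 bp before all 19973 protein-coding 5′ ends. The 5 were the act-4 intron, act-1, unc-54, the lev-11 intron and unc-15, so that all 5 lay at filament genes, which held 8 of the 12 peaks. CACACA was found in 3 of the 12 (25%), against 19.6% of the other called peaks, 5.74% of their flanks and 5.23% of promoters. The act-4 intron held 17 matches, most of them in 1 run that shared a base with a GAGAGA match, while mlc-3 held 2 matches past the end of the printed stretch and unc-54 held 1. GACGCA was found in 1 of the 12 (8.33%), the unc-22 intron, against 11.9% of the other called peaks, 2.69% of their flanks and 2.65% of promoters. CAGCTG and TATAAA were found in none of the 12, against 3.97% and 3.61% of the other called peaks, and 1.73% and 19.4% of promoters. None of the 12 peaks lay within 500 bp of a tRNA, rRNA, snRNA, snoRNA or miRNA gene. Among the 1070 other called peaks away from such genes, GAGAGA was found in 24.4%, CACACA in 21.6% and GACGCA in 14.6%. CAGCTG was found there in 4.49% and TATAAA in 2.8%. A match is a string of letters and not a shown site.

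The muscle gene summits were rich in G and C. Their mean G and C content over 101 bp was 56.9% ± 4.21 (SD, n = 12 peaks), and the lowest was 51.5% at mlc-2 and at the act-4 intron. The other 1411 called peaks averaged 49.9% ± 7.8, their flanks 37.1%, and the 101 bp before all protein-coding 5′ ends 33.2%. All 12 muscle gene summits thus lay above the mean of the other called peaks. Peaks at unc-60, mlc-2, unc-112, the unc-89 intron and the act-4 promoter window held no match to the 5 words.

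On the nuclear chromosomes the IDR list held 1423 peaks, and these were the 1423 peaks of highest signal in the pooled relaxed list of 29980, so the IDR list acts here as a threshold at a signal of 146.6. The signal is the authors' deposited value for a peak, and the sources used here do not state its scaling. A gene was counted as bound where a summit lay in its promoter window, which ran from 1000 bp before the 5′ end of the gene to 500 bp after it. By that rule 9 of the 36 muscle genes were bound (25%, 95% exact Clopper-Pearson interval 12.1 to 42.2%), against 4.69% of all protein-coding genes, or 936 genes. The interval covers counting error only and treats genes as independent, and the share of all genes lay below it. The members were chosen with earlier results of these data known, so this is a description and not a test. The 9 were unc-60, unc-112, unc-22, unc-54, unc-15, mlc-2, mlc-3, act-1 and act-4. Each had its own summit. Among the 711 strongest peaks of the IDR list, only mlc-2 and unc-60 remained of the 9, against 2.59% of all protein-coding genes.

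Among the members, the actin regulator and attachment genes gave 2 of 13 (15.4%, interval 1.92 to 45.4%), and the thick and thin filament genes gave 6 of 20 (30%, interval 11.9 to 54.3%). The intervals overlap over most of their length, and the difference was not tested. The order turned round with replicate 2 alone, where 3 of 13 actin regulator and attachment genes (23.1%) and 3 of 20 filament genes (15%) were bound. By role, the count was 1 of 3 for actin regulators, 1 of 10 for attachment, 1 of 3 for giant proteins and the chaperone, 4 of 8 for thick filaments and 2 of 12 for thin filaments. The thick filament genes thus gave 4 of the 9, but without replicate 1 they fell to 2 of 8 (25%), mlc-2 and unc-54, and stood below the actin regulators and the giant proteins at 1 of 3 each.

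**Figure D1:**
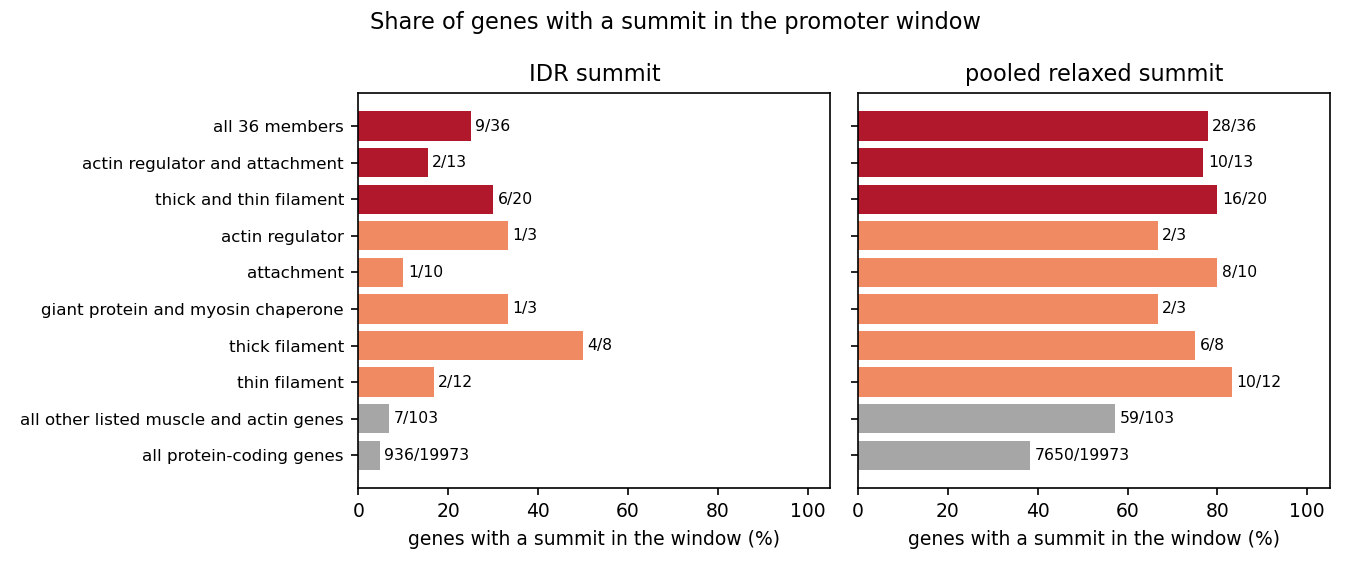
Share of genes, in percent, with a summit in the promoter window, for IDR summits (left) and pooled relaxed summits (right), with the number of genes beside each bar. All 36 members stand at 25% and 77.8%, above all protein-coding genes at 4.69% and 38.3%, and the thick filament genes stand at 4 of 8 in the IDR list, a count that was 2 of 8 without replicate 1.

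Of the actin regulators, unc-60 carried a called peak, which had the highest pooled signal of the 9 window peaks but not the highest in replicate 2, where mlc-2, unc-54 and unc-112 were above it. The gene encodes ADF/cofilin proteins, which sever and turn over actin filaments. Its summit at V:1474755, between genes, lay 331 bp upstream of the 5′ end and had a signal of 229.1, rank 592 of 1423. The peak had 147.7 in replicate 1 (rank 423) and 89.1 in replicate 2 (rank 924). In replicate 2, 2 peaks matched the site. The stronger one, used here, had its summit 102 bp from that of replicate 1, and the one with its summit nearer the pooled summit had 47.4 and ranked 5290. The protein-coding gene F53E2.2 is annotated with the same 5′ end on the same strand, so the summit belongs to both equally. The other actin regulators had no called summit. The gene unc-87, for a calponin-like protein that stabilises actin filaments, had 48.7 in the pooled list at 676 bp upstream, with 28.9 in replicate 2 and no summit in replicate 1. The gene unc-78, for the AIP1 protein that works with ADF/cofilin, had no pooled summit in its window.

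Of the attachment genes, unc-112 alone was bound by the IDR list. It encodes kindlin, which activates integrin at the adhesion complex. The summit at V:14697085 lay 431 bp upstream with a signal of 193.2 (rank 802), and had 102.7 in replicate 1 and 93.2 in replicate 2. The ranks in the replicates, 870 and 849, were nearly the same. No other annotated 5′ end had this summit in its window, and the same held for the upstream summits of mlc-3, unc-54 and unc-15.

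Below the IDR threshold, 7 more attachment genes had a pooled summit in the window. The strongest was at pat-4, the integrin-linked kinase, with 135.3 at 325 bp upstream, rank 1692 in the pooled list, and 57.9 in replicate 1 and 78.4 in replicate 2. The beta integrin gene pat-3 had 115.4 at 823 bp upstream, with 62.3 and 56.5 in replicates 1 and 2. The perlecan gene unc-52, whose product lies in the basement membrane, had 93.7 at 136 bp downstream, with 61.4 and 43.3. These 3 had a summit in the window in each replicate. The others were pat-6 (parvin), unc-95 (a LIM domain protein), unc-97 (PINCH) and pat-2 (alpha integrin), between 44.7 and 84.2. Of these 4, only unc-95 had a summit in the window in both replicates. The vinculin gene deb-1 and the alpha-actinin gene atn-1, whose products sit in dense bodies, had no pooled summit in the window. Of the genes for kindlin, the integrin-linked kinase, parvin and PINCH, whose products act together at integrin, kindlin was thus past the threshold and the kinase came next by signal.

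The giant protein genes carried called peaks in introns. Twitchin, the product of unc-22, is a giant kinase of the thick filament region. Its summit at IV:12010595 lay 412 bp downstream of the 5′ end in an intron, with a signal of 185.6 (rank 859), and 108.4 and 74.6 in replicates 1 and 2. The summit also lay in the windows of ZK617.26, a short protein-coding gene annotated inside unc-22, and of 2 noncoding RNA genes, and counting each summit only for the nearest protein-coding 5′ end took unc-22 off the list. The myosin chaperone gene unc-45 had 70.6 at 553 bp upstream in the pooled list, and 33.5 and 34.2 in the replicates. A called summit of 162.0 lay 1380 bp upstream of unc-45, outside the window, and one of 170.6 lay 1068 bp upstream of unc-97. At the inner edge, the act-4 summit at 495 bp downstream was 5 bp inside the window, and unc-22 at 412 bp was the next closest.

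Obscurin, the M-line protein encoded by unc-89, had no pooled summit in its promoter window but a called one far inside. In the list of replicate 2 the promoter window held a summit of 61.4 (rank 2354), and in that of replicate 1 it held none. The gene spans 55.2 kb on chromosome I, at 4035702 to 4090885. The summit at 4046657 lay in an intron 10955 bp from the 5′ end, and 479 bp upstream of an internal start that 5 annotated transcripts share. It had a signal of 173.1 (rank 995), with matched peaks of 110.2 in replicate 1 and 77.4 in replicate 2. The replicate summits lay 186 bp apart, the widest gap among the 12 peaks. The matched replicate 1 summit, at 4046835, lay nearer to a weaker pooled summit 11157 bp from the 5′ end than to the called one. With windows drawn at every annotated transcript start, unc-89 joined the list and 10 of 36 genes were bound, against 5.11% of all protein-coding genes.

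Of the thick filament genes, 4 were bound at distances of 40 to 365 bp upstream of the 5′ end. The myosin regulatory light chain gene mlc-2 had the strongest, 213.6 (rank 668) at X:17456951, 365 bp upstream. Its replicates gave 93.9 and 112.7, and the replicate summits lay 4 bp apart. It was one of 3 peaks at muscle genes that were stronger in replicate 2. The same summit also lay in the window of the noncoding RNA gene C36E6.11.

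The essential light chain gene mlc-3 had the summit closest to a 5′ end, 40 bp upstream at III:5564985. Its signal was 191.8 (rank 808), with 125.5 in replicate 1 and 72.3 in replicate 2. The major body wall myosin heavy chain gene unc-54 had 190.1 (rank 818) at 126 bp upstream, I:14863608, with 87.4 and 100.1. The paramyosin gene unc-15, whose product forms the core of the thick filament, had 169.8 (rank 1044) at 117 bp upstream, I:7383314, with 107.5 and 61.9. The replicates thus ranked these genes in different orders, with unc-15 above unc-54 in replicate 1 and below it in replicate 2.

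Of the thick filament genes with no called summit, myo-3 and mlc-1 had weaker pooled peaks and the pharyngeal heavy chain genes had none. The minor body wall heavy chain gene myo-3, needed to begin thick filament assembly, had a pooled peak of 119.6 at 491 bp upstream, with 78.1 and 37.2 in replicates 1 and 2. The second regulatory light chain gene mlc-1 had 101.6 at 87 bp upstream, with 49.6 and 50.02. The pharyngeal heavy chain genes myo-1 and myo-2 were the only members with no summit in the window in the pooled list or in either replicate's list. Their nearest called summits lay 72106 bp and 9870 bp away.

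Of the thin filament genes, 2 actin genes were bound. The act-1 summit at V:11080445 lay 607 bp upstream and had a signal of 194.7 (rank 790), with 107.6 and 81.8 in replicates 1 and 2. It was the farthest upstream of the 9 and was lost with a window of 500 bp upstream. The act-1 summit also lay in the windows of the noncoding RNA genes T04C12.16 and T04C12.25. It was 179 and 61 bp downstream of their 5′ ends, nearer than to that of act-1. The act-4 window held a summit at X:4961116, 495 bp into the gene in its first intron, with a signal of 158.8 (rank 1190), the weakest of the 9, and 102.3 and 57.9 in the replicates. A second intronic summit of act-4, at X:4962446, was the strongest at any muscle gene. It had a signal of 284.5 (rank 381), with 121.7 in replicate 1 (rank 626) and 178.6 in replicate 2 (rank 236). It lay 1825 bp from the 5′ end, outside the window, and 429 bp upstream of the start of a shorter annotated transcript. The 4 actin genes are near-identical copies in their coding parts, and the sources used here do not state how reads that match several places were handled. Both act-4 summits and the act-1 summit lay outside exons, but the stronger act-4 summit lay within the CA repeat run.

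The paired arrangement of some muscle genes put a called summit nearer to one partner. The genes act-1 and act-2 point away from each other with 5′ ends 2898 bp apart, and the called summit lay 607 bp from act-1 and 2291 bp from act-2. The genes mlc-2 and mlc-1 likewise diverge over 2624 bp, and the summit lay 365 bp from mlc-2 and 2259 bp from mlc-1. Each partner without a called summit had a weaker pooled one of its own, and that of act-2 was 119.9 at 432 bp upstream, with 84.0 and 51.8 in the replicates.

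Tropomyosin, the product of lev-11, lies along the actin filament and moves to let myosin bind. Its gene had a called summit in an intron on chromosome I, at 14628113, 2981 bp from the 5′ end and 2667 bp upstream of the next annotated transcript start. The signal was 171.5 (rank 1020), with 103.4 and 64.3 in replicates 1 and 2. At its 5′ end lev-11 had a pooled summit of 120.1, 76 bp upstream, with 69.6 and 51.4. The intronic peak was thus above the peak at the start in both replicates.

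The troponin genes, whose products switch the thin filament on with calcium, had no called summit. The troponin C gene pat-10 came closest, with a pooled summit of 134.1 at 84 bp downstream and 74.3 and 56.6 in replicates 1 and 2. The troponin T gene mup-2 had 117.4 at 389 bp upstream, with 45.4 and 69.3. The troponin I genes tni-1 and tni-3, the troponin T gene tnt-2 and the actin gene act-3 lay between 50.3 and 82.2. The troponin I gene unc-27 had no pooled summit in its window but 61.4 in replicate 1 and 49.02 in replicate 2, and tnt-3 had none in the pool and a summit in replicate 1 only.

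**Figure D2:**
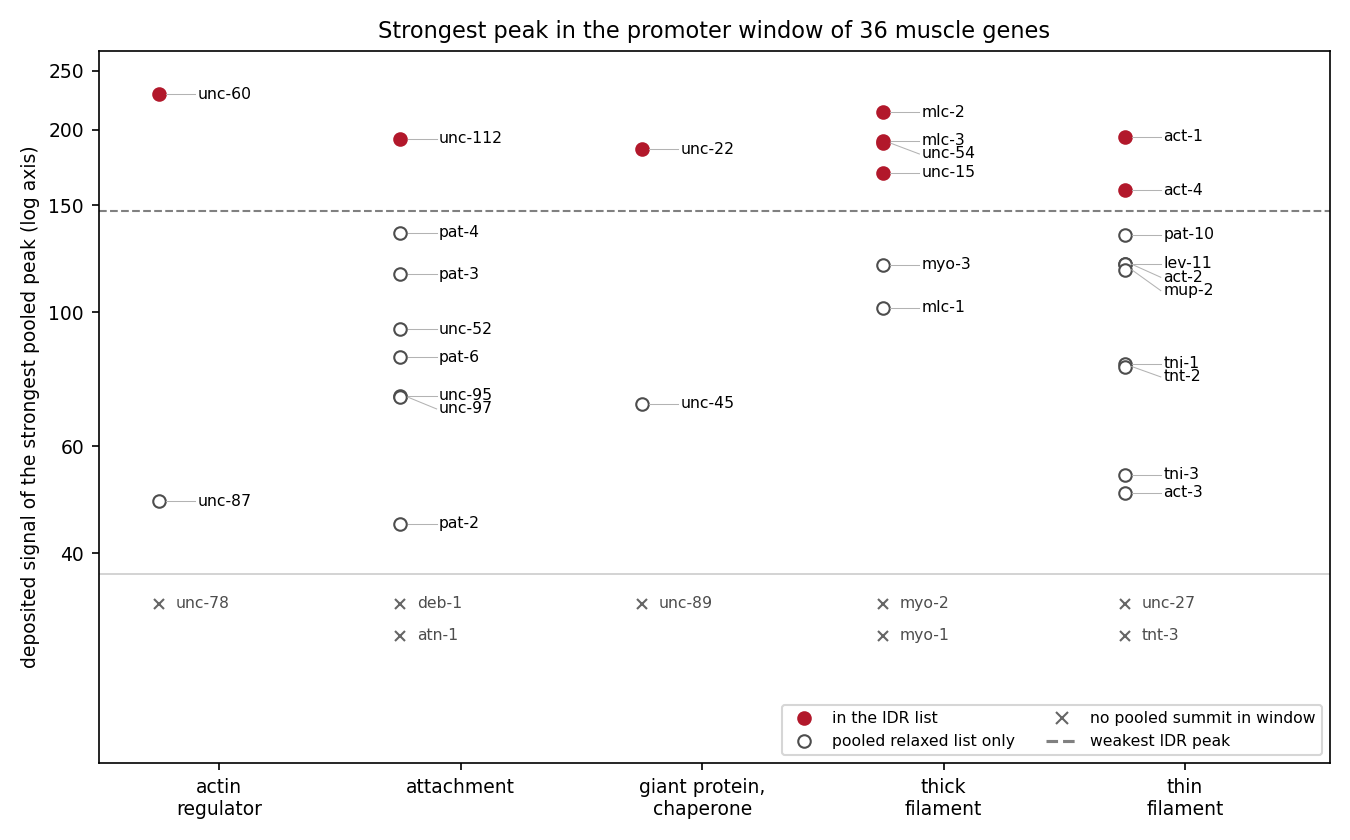
Deposited signal (log axis) of the strongest pooled peak with its summit in the promoter window, for each of the 36 genes by role, with filled points for genes in the IDR list and crosses, at no value, for the 8 genes with no pooled summit. Filled points lie between 158.8 and 229.1, above the dashed line at 146.6, and pat-4 and pat-10 are the open points nearest to that line.

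Counting every pooled relaxed peak, 28 of the 36 genes had a summit in the window (77.8%), against 38.3% of all protein-coding genes. The relaxed lists hold background as well as peaks, per the file headers. The share was 10 of 13 for actin regulator and attachment genes (76.9%) and 16 of 20 for filament genes (80%). A summit in the window in each replicate's own relaxed list was found for 25 of 36 genes (69.4%), against 27.9% of all protein-coding genes. By that count the actin regulator and attachment genes gave 6 of 13 (46.2%) and the filament genes 17 of 20 (85%). The shares of these groups were thus close in the pooled list and farther apart where both replicates were required, and neither difference was tested.

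The strongest pooled signal in the window had a median of 118.5 over the 28 genes that had one, against 70.1 over 7650 such protein-coding genes. It was 88.96 for the actin regulator and attachment genes, 119.99 for the filament genes, 179.96 for thick filaments and 118.7 for thin filaments. The 19 genes with a pooled but no called summit ran from 44.7 to 135.3 with a median of 84.2, and 8 of them reached 100. Of all 28, 17 reached 100 and 4 fell under 60, against 1949 and 2768 of the 7650 protein-coding genes. These medians leave out the 8 members with no pooled summit.

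Within the IDR list most of the muscle gene peaks lay below the middle rank. The 9 window peaks had a median signal of 191.8, against 211.3 over all 714 called peaks in a protein-coding promoter window, where the quartiles were 171.8 and 296.9 and the strongest 1795. Their ranks ran from 592 to 1190 of 1423. None of the 12 called peaks at muscle genes lay within 500 bp of a tRNA, rRNA, snRNA, snoRNA or miRNA gene, against 24% of all called peaks and 14% of those in promoter windows. All 12 peaks were 430 bp wide, which was also the median width of all called peaks, and their deposited −log10 q-values lay between 2.24 and 2.35.

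**Figure D3:**
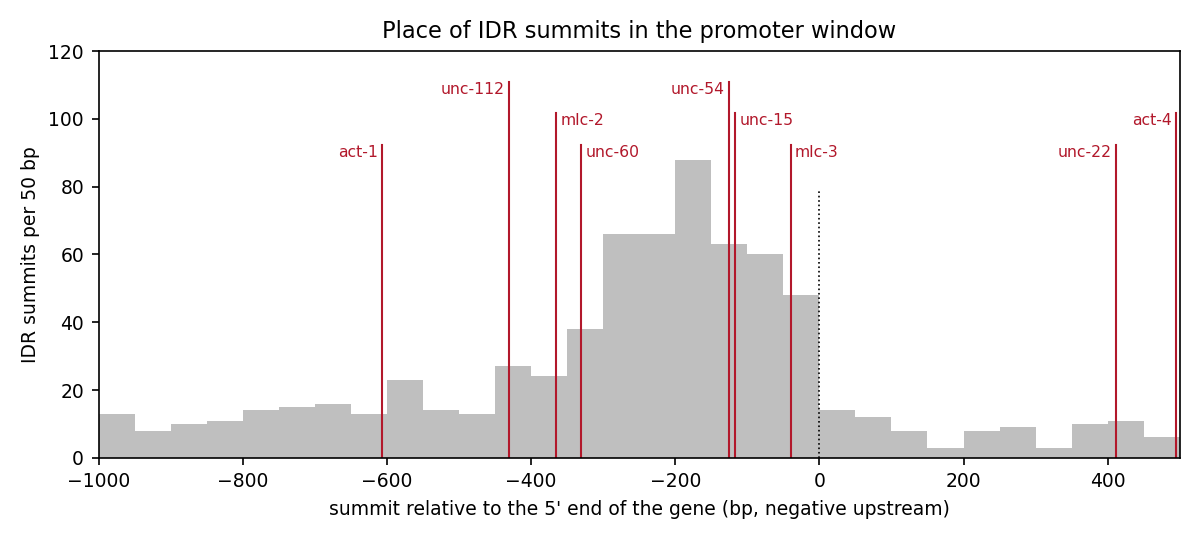
Distance of IDR summits from the 5′ end (bp, negative upstream), as grey bars of 50 bp for all 714 summits in protein-coding promoter windows and as red lines for the 9 muscle genes, whose heights only separate the labels. The mlc-3, unc-15 and unc-54 lines fall 40 to 126 bp upstream, and unc-22 and act-4 lie downstream of the 5′ end.

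All summits in promoter windows had their median 208 bp upstream of the nearest 5′ end, with quartiles at 396 and 92 bp. Of the 9 muscle genes, unc-112 and act-1 lay beyond the far quartile, mlc-2, unc-60, unc-54 and unc-15 between the quartiles, and mlc-3 nearer than the near one. The unc-22 and act-4 summits lay downstream.

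Every one of the 12 peaks was matched in both replicate lists, as were 1418 of all 1423 called peaks. Matches were made by overlap, so a matched summit could lie away from the called one, as at unc-60 and unc-89. Replicate 2 was lower at 9 of the 12 (75%), against 70.7% of 1418 matched called peaks. The log2 difference of replicate 2 minus replicate 1 had a median of -0.52 (SD 0.47, n = 12 peaks), against -0.19 (SD 0.42) over all called peaks. It ran from -0.82 at the act-4 window to 0.55 at the act-4 intron, so the ends of the range were 2 peaks of 1 gene. The mlc-2 peak at 0.26 and the unc-54 peak at 0.19 were also higher in replicate 2. Since the scaling of each list is not stated, a shift of all peaks between the replicates and a difference in scale cannot be told apart.

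**Figure D4:**
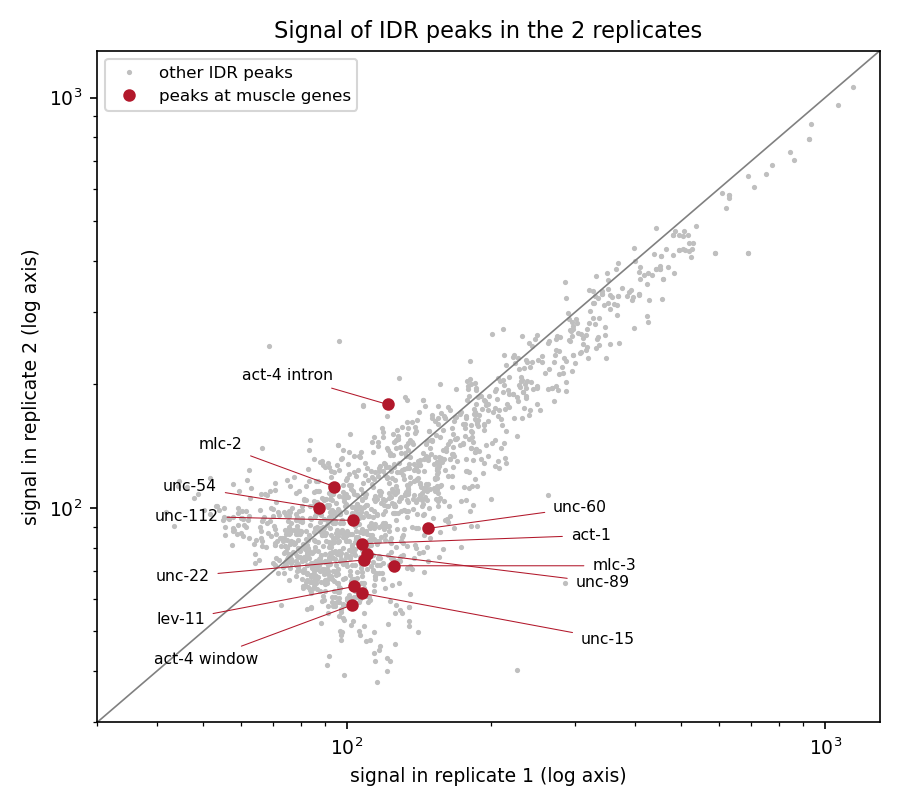
Deposited signal of matched IDR peaks in replicate 1 and replicate 2 (log axes), with the 12 peaks at muscle genes in red, other peaks in grey and the line of equal signal. The act-4 intron, mlc-2 and unc-54 lie above the line and the other 9 below it, with the act-4 window farthest below.

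Using replicate 2 alone, with its 1423 strongest peaks, 7 of 36 genes were bound, against 4.45% of all protein-coding genes, and using replicate 1 alone 10 were, against 4.56%. Without replicate 1, act-4, mlc-3 and unc-15 dropped out and pat-4 came in, so the filament genes fell to 3 of 20 and the actin regulator and attachment genes came to 3 of 13, against 6 of 20 and 2 of 13 in the IDR list. Without replicate 2, act-2 came in.

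Summits inside the gene, at any distance from the start, were found by the IDR list in 4 of 36 members, act-4, lev-11, unc-22 and unc-89, against 2.1% of all protein-coding genes. Long genes hold more summits: of protein-coding genes of 20 kb or more, 22.2% held one. Of the 3 members of that length, unc-22 and unc-89 held one, and unc-52, at 37.1 kb, held none. Of the 3 summits inside members and outside their promoter windows, 2 lay in the window of an internal transcript start, those of act-4 and unc-89, and that of lev-11 did not. Taking window and gene body together, 11 of the 36 members had a called summit, against 6.27% of all protein-coding genes.

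**Figure D5:**
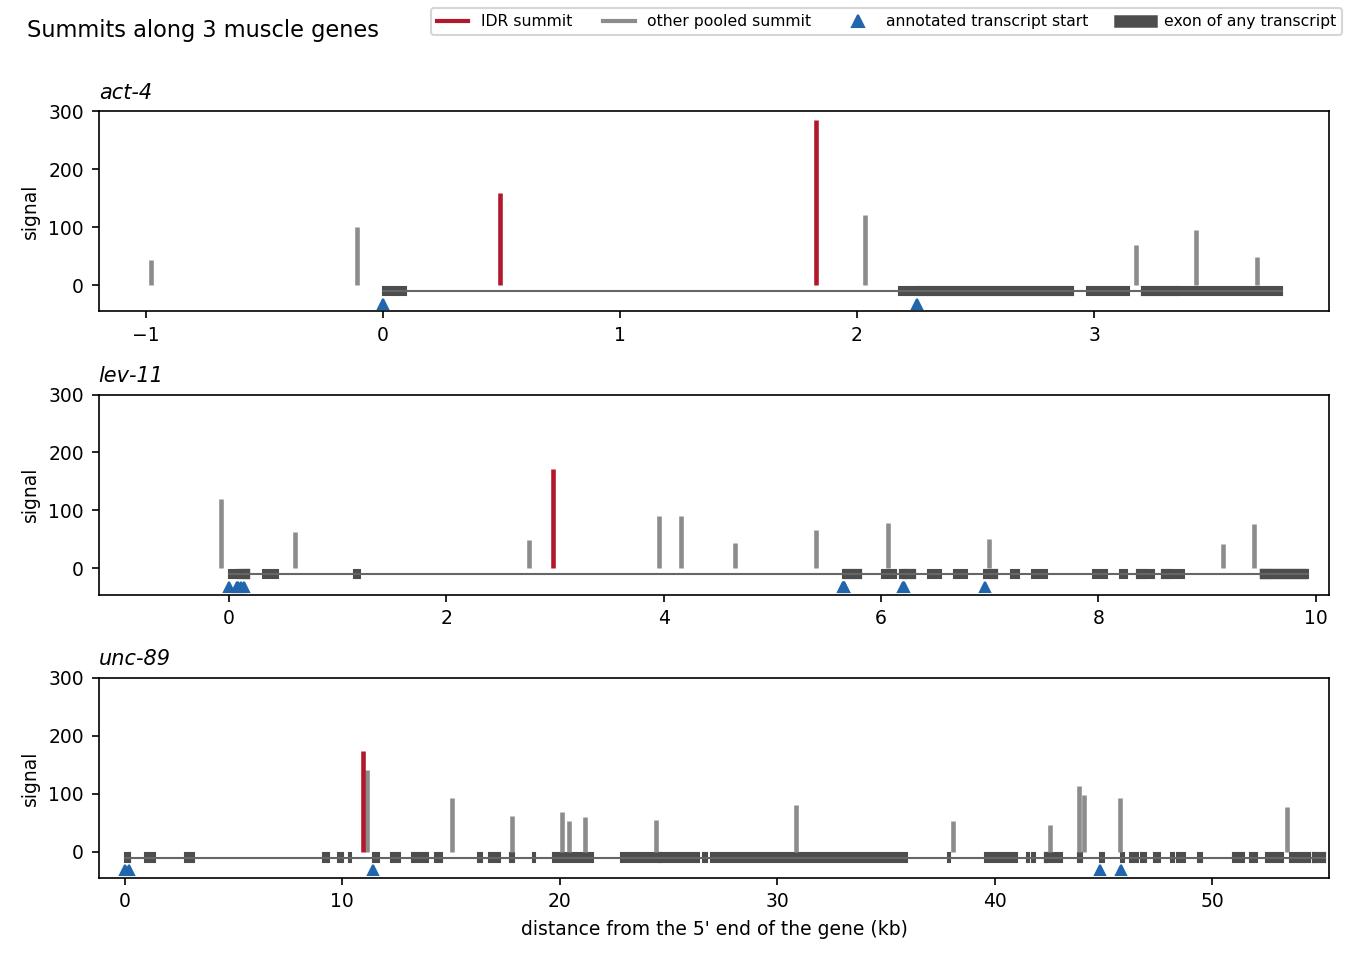
Summits along act-4, lev-11 and unc-89, placed by distance from the 5′ end (kb) and drawn to their deposited signal, with IDR summits in red, other pooled summits in grey, exons as boxes and transcript starts as triangles. Red summits stand in introns, and those at 1825 bp in act-4 and 10955 bp in unc-89 come just before an internal start.

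By chromosome, 3 of 8 members on V had a called window summit, against 2.5% of all protein-coding genes there. The count was 2 of 8 on I (against 6.91%), 0 of 1 on II (4.2%), 1 of 5 on III (6.7%), 1 of 3 on IV (4.42%) and 2 of 11 on X (5.31%). Each chromosome holds few members, so these counts are a description.

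Other genes of muscle and of actin assembly were counted the same way, from 7 lists of textbook members. Of 103 genes found by name, 7 were bound by the IDR list (6.8%, interval 2.78 to 13.5%), against 4.69% of all protein-coding genes. That share lies within the interval, but these lists too were chosen with earlier results known, so this is a description and not a test. A pooled summit was found for 59 (57.3%), against 38.3% of all. No gene was bound among 11 of the muscle basement membrane, 18 of excitation and contraction coupling, 8 muscle transcription factors and 8 filament paralogs used outside body wall muscle, lists so short that the share of 4.69% over all genes comes to under 1 gene in each. Of the basement membrane genes, 1 held a called summit inside the gene. Of the 8 paralogs, 2 had a pooled summit (25%). Among 18 further sarcomere and attachment genes the talin gene tln-1, which links integrin to actin, was bound, with 155.6 at 836 bp upstream.

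The other actin regulators gave 3 of 33 (9.09%). These were the WAVE complex gene wve-1 with 302.9, the profilin gene pfn-2 with 267.1 and the capping protein gene cap-2 with 171.6. The wve-1 summit lay 625 bp upstream and was shared with R06C1.4, and the cap-2 summit lay 251 bp upstream and was shared with gmps-1. The chaperone list gave 3 of 7: cdc-48.1, an AAA ATPase that works with UFD-2 on UNC-45, had 625.7 (rank 90), hsp-1, a constitutive HSP70, had 552.7 (rank 123), and sti-1, an HSP70 and HSP90 co-chaperone, had 150.4 (rank 1347). The peaks of the first 2 were above every called peak at the 36 muscle genes. The cdc-48.1 summit also lay in the window of C06A1.9, a snoRNA gene, and the hsp-1 summit in that of F26D10.23, a noncoding RNA gene.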

How the data were processed

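ChIP-seq of tagged M03D4.4 in 2 replicates of embryos of 1 group gave peak lists, per the labels. The authors deposited a relaxed list for each replicate and for the pool, called with a control and including background, and an IDR list derived from them, per the file headers. The sources used here name no aligner, peak caller, IDR threshold or scaling. The deposited signal of each peak ranked peaks within a list, and the deposited −log10 q-value is given as a description. Depth is unknown because the lists hold no read counts.

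The ce11 lists were used with Ensembl release 115 on WBcel235, and the ce10 lists were not used. Mitochondrial peaks were left out, which took the IDR list to 1423 peaks of 1443. Pooled and replicate peaks were matched by an overlap of 50% or more of one of them, with the strongest match taken. Shares carry 95% Clopper-Pearson intervals, which cover counting error only. No contrast between groups of samples exists, so no test was run. Peak-to-gene assignment was tested on simulated data.

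The members and gene lists were chosen with earlier results of these data known. Members with a called summit in the window or gene were named with values, then up to 3 per role by pooled rank, and the rest by range. Genes sharing a summit, those just outside the window, act-3 and the members with no pooled summit were named after their values were seen. Of the names in the other lists, tmd-1 and daf-21 found no match. Alternatives were other windows and transcript starts, peak overlap in place of the summit, the nearest 5′ end, stronger peaks, no peaks near small RNA genes, and each replicate alone. The software was Matplotlib 3.10.9, SciPy 1.17.1, pandas 2.3.3, NumPy 2.4.6 and Python 3.11.15.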

Additional observations from a re-analysis of the deposited data

How the results depend on the processing

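Of 48 alternative counts, 42 were within 1.5 times the reported one. The 42 include counts that could not change. These used the same number of strongest pooled peaks, or left out peaks near small RNA genes, of which the muscle genes had none. Among the 711 strongest peaks of the IDR list, 2 muscle genes were bound at the promoter window, mlc-2 and unc-60, with 1 filament gene and 1 actin regulator or attachment gene, and 1 gene, act-4, had a summit inside, as fewer peaks were used. The shares over all protein-coding genes were 2.59% at the window and 1.07% inside. Leaving out each replicate in turn gave 7 to 10 muscle genes, 3 to 7 filament genes, 2 to 3 actin regulator and attachment genes, and 3 to 4 genes with a summit inside. Over all protein-coding genes the shares were then 4.45% to 4.56% at the window and 2.2% to 2.23% inside. With any base of a peak inside the gene, 9 genes were counted in place of 4, against 3.9% of all genes. The peaks that added mlc-3, unc-15 and unc-54 reached in from the 5′ side, and those that added act-1 and pat-4 from the 3′ side. Counting the nearest 5′ end only left 8 genes, without unc-22 (against 3.45% of all genes), a window of 500 bp upstream left 8, without act-1 (3.63%), and peak overlap gave 10, unc-97 added (5.14%). In the nearest-end count unc-60 was kept, though F53E2.2 shares its 5′ end and is equally near. Pooled counts ran from 24 to 31 of 36 genes, with shares of 24.4% to 41.1% over all protein-coding genes at the same settings. The strongest pooled peaks, the same number as in the IDR list, are that list itself. No paired analysis was possible because there is 1 group of samples. Unknown depth, 2 replicates and unstated scaling limit what small differences in signal can show.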

Other observations

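Weaker summits lay inside most of the muscle genes. The pooled relaxed list put 114 summits inside the 36 muscle genes, or 0.41 per kb over 278 kb, against 0.301 per kb over all protein-coding genes, and 31 of the 36 (86.1%) held at least 1, against 38% of all. The members were longer, with a median length of 4.65 kb against 2.03 kb. Of all genes of 20 kb or more, 96.5% held at least 1, so the shares of genes with any summit are not alike in length. The members of 20 kb or more held 0.337 per kb, against 0.423 per kb in all genes of that length. Within the set the perlecan gene unc-52 held the most, 25 summits at 0.673 per kb, the strongest with a signal of 118.3 at 27210 bp from the 5′ end. The tropomyosin gene lev-11 held 11 (1.11 per kb) and act-4 held 6 (1.58 per kb). The twitchin gene unc-22, at 38.3 kb, held 4 (0.104 per kb) and unc-45 held 1 (0.0903 per kb), the lowest densities among members that held any. The genes act-1, unc-27, tnt-2, unc-78 and pat-6 held none. Next to the called summit of unc-89 lay a second pooled one of 141.1 at 11157 bp, just under the IDR threshold. The replicate 1 peak matched to the called summit had its own summit nearer to this second one. These genes were singled out after their values were seen.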
